A study of Mus musculus with 4 samples.

Results

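Conventional CD4 T cells, here the CD4 T cells without a Foxp3 transcript, were picked out of digests of transplanted mouse hearts by a rule on single genes. A cell was a member when it had over 200 detected genes, under 20% of its unique molecular identifiers (UMIs, each standing for 1 captured RNA molecule) from mitochondrial genes, at least 2 UMIs over Cd3d, Cd3e and Cd3g, and at least 1 UMI of Cd4. It also had to have 0 UMIs of Cd8a, Cd8b1, Foxp3 and the endothelial gene Cdh5, and under 10 UMIs of the macrophage gene Lyz2. The rule found 224 members among 44626 cells within these limits on detected genes and mitochondrial UMIs, out of 53824 deposited cells. The members were chosen by the UMIs of these genes, so their levels are given as descriptions only.

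The grafts were hearts of male mice aged 8 to 10 weeks placed in the abdomen of C57BL/6J recipients and taken on day 5 after transplantation. There were 2 allogeneic grafts from Balb/C mice and 2 syngeneic grafts from C57BL/6J mice, with no drug or engineered allele named for any of them. Whole grafts were digested with enzymes, freed of red cells and loaded without a sort, so a T cell could come from the graft tissue, its vessels or blood left in it, and host and donor T cells were not told apart. The cells form 4 libraries by their barcode suffix, and the sources used here do not say which library is which graft. Each library is therefore given by its number, the allogeneic and syngeneic grafts were not compared, and no difference between libraries has a replicate check.

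CD4 T cells recognise peptides on MHC class II through the T cell receptor and the CD4 co-receptor, and steer other cells through cytokines and through contact molecules such as CD40 ligand. A resting cell carries the transcription factors Lef1 and Tcf7 and recirculates through lymph nodes. After activation it gains costimulatory receptors and can take on a Th1, Th2, Th17, follicular helper or regulatory programme. In rejection of an allograft CD4 T cells are known for helping CD8 T cells and B cells and for activating macrophages through interferon gamma.

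Library 4 held most of the conventional CD4 T cells. The members numbered 12 of 10322 filtered cells in library 1, 25 of 13154 in library 2, 9 of 9850 in library 3 and 178 of 11300 in library 4. These are shares of 0.116% (95% interval 0.0601% to 0.203%), 0.190% (0.123% to 0.280%), 0.0914% (0.0418% to 0.173%) and 1.58% (1.35% to 1.82%). The interval of library 4 lay above those of the other libraries, and over all libraries the share was 0.502%, against 0.138% without library 4. Intervals of shares are exact Clopper-Pearson intervals and those of levels are exact Poisson intervals, and both cover counting error only, not differences between animals. Intervals of levels and of their ratios also leave out the uneven spread of UMIs between cells.

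**Figure D1:**
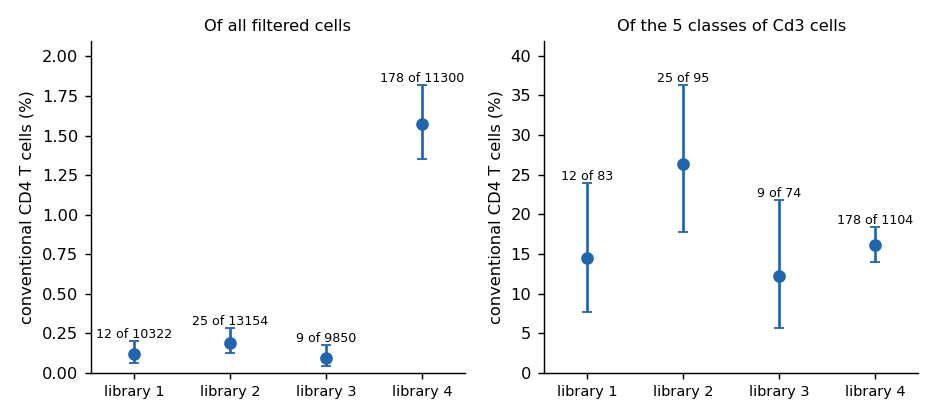
Share of conventional CD4 T cells in each library as a percentage of all filtered cells (left) and of the 5 classes of Cd3 cells (right). Points are 1 library each with exact 95% Clopper-Pearson intervals, and library 4 stands at 1.58% on the left but between the other libraries on the right.

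Among T cells the members took a more similar part of each library. Cells with the Cd3 sum of the rule, under 10 Lyz2 UMIs and 0 Cdh5 UMIs were put into 5 classes: conventional CD4, CD8, Foxp3, no co-receptor and both co-receptors. Conventional CD4 T cells were 12 of 83 of these cells in library 1, 25 of 95 in library 2, 9 of 74 in library 3 and 178 of 1104 in library 4. The shares were 14.5% (7.70% to 23.9%), 26.3% (17.8% to 36.4%), 12.2% (5.71% to 21.8%) and 16.1% (14.0% to 18.4%), and all 4 intervals overlapped. CD8 T cells, with a UMI of Cd8a or Cd8b1 and none of Cd4 or Foxp3, were more numerous than conventional CD4 T cells in each library, at 19, 38, 29 and 555 cells. Foxp3 T cells numbered 7, 2, 4 and 56.

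Depth differed between the libraries and bears on every value below. The members had a median of 5545, 4382, 5050 and 9723.5 non-mitochondrial UMIs in libraries 1 to 4, and summed to 81509, 119803, 51557 and 2494717 UMIs. Levels are CPM, the UMIs of a gene over the non-mitochondrial UMIs of all members of a library, times 1000000, so a gene with 0 UMIs could have been at up to 36.8, 25, 58.2 and 1.20 CPM in the 4 libraries, the value of 3 UMIs. Values of libraries 1 to 3 therefore rest on few molecules. Counting was from the 3′ end and is not scaled by gene length, so levels are compared between cells for 1 gene and not between genes.

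The members carried the T cell receptor machinery that the rule did not ask for. Trac, the constant region of the alpha chain, stood at 797, 334, 776 and 806 CPM in libraries 1 to 4, and in library 4 it had a UMI in 97.2% of members. Its share in endothelial cells of library 4, which should lack it, was 10.5% at a similar median depth of 9755 UMIs, in cells chosen for 0 UMIs of Cd3d, Cd3e and Cd3g. All 17 genes of the list for the T cell receptor and its signalling, 3 of them used by the rule, were detected in every library. Trbc2, a constant region of the beta chain, stood at 1362, 1077, 2017 and 1593 CPM. The list fixed for B cells was at 0 in libraries 1 to 3 and summed to 2.41 CPM in library 4, with Ms4a1 at 0.

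Cells next to the edge of the rule resembled members in some measures and not in others. Of the members, 85 had a single Cd4 UMI and a median of 5213 UMIs, and 139 had more and a median of 11556 UMIs. Cd4, at chr6:124864692-124888221 on the minus strand of GRCm38, stood at 172, 275, 213 and 275 CPM in the members of libraries 1 to 4 by choice of the rule. Just outside the rule stood 365 Cd3 cells with 0 Cd4 UMIs and a median depth of 4768 UMIs, 44 cells with 1 UMI of Cd8a or Cd8b1 and a median of 3.5 Cd4 UMIs, and 9 cells with 1 Foxp3 UMI. The Cd3 threshold left 8 cells with a sum of 2 inside and 8 with a sum of 1 outside. The limit on Lyz2 left 37 members with 5 to 9 UMIs inside and 22 cells with 10 or more, at a median of 55, outside. Among cells without a detected co-receptor, missed Cd4 transcripts and cells that express none cannot be told apart.

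RNA of other cell types was present and differed by library. In library 2, S100a8, a granulocyte gene, had a UMI in 25 of 25 members at 860 CPM, and in 98.4% of its endothelial cells at 2862 CPM. The endothelial gene Fabp4 stood at 2020.0 CPM in the members of library 2 and at 24266 CPM in its endothelial cells. Both genes were thus lower in the members than in the endothelial cells of that library. In library 1, 1 member held 99.6% of 3402 UMIs of the globin gene Hbb-bs, and 1 member held 97% of the UMIs of the fibroblast gene Dcn.

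The macrophage list summed to 1092, 275, 776 and 1013 CPM in libraries 1 to 4, with none of its 9 genes at 0 in library 4. The complement gene C1qa had a UMI in 55.6% of members and in 55.4% of endothelial cells, and Lyz2 in 91.6% and 93.1%. The granulocyte list summed to 73.6, 2195, 19.4 and 246 CPM with none of its 4 genes at 0 in libraries 2 and 4, and 1 member of library 4 held 49.3% of its S100a8 UMIs. The fibroblast list summed to 5472, 117, 679 and 93.8 CPM in libraries 1 to 4, the erythroid list to 76274, 267, 97 and 23.6 CPM, and the endothelial list to 454, 2387, 698 and 64.5 CPM. The source of these transcripts in the members was not tested. Simulation marked 5 of the 224 members as possible doublets, 4 of them in library 4, and 1 member shared its barcode sequence with a cell of another library, among 616 deposited cells that did so.

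Genes of resting and recirculating T cells were highest in library 2, and most of those named here were lowest in library 4. Lef1, a transcription factor of naive T cells, stood at 172, 609, 175 and 64.5 CPM in libraries 1, 2, 3 and 4, and had a UMI in 33.3%, 88.0%, 66.7% and 47.8% of members. Tcf7, its partner in self-renewal, stood at 344, 501, 233 and 81.8 CPM. Satb1, a chromatin organiser of T cells, stood at 564, 1644, 562 and 173 CPM. For each of these genes library 2 was highest and library 4 lowest, and for Lef1 only 1.01% of endothelial cells in library 4 had a UMI. Il7r, the receptor chain for interleukin 7, stood at 196, 701, 369 and 126 CPM and Ccr7, which guides cells to lymph nodes, at 49.1, 401, 329.7 and 85.0 CPM, both named after their values were seen, and Ccr7 was lowest in library 1. The 14 genes of the naive and central memory list summed to 4294, 6736, 3259 and 1229 CPM.

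Of the activation genes named here, Lgals1, S100a6 and Ly6a were highest in library 4 and Cd69 was not. Lgals1, a galectin gained on activation, stood at 589, 359, 562 and 2581 CPM, and S100a6, a calcium-binding protein of effector cells, at 675, 175, 912 and 1338 CPM. Ly6a, the Sca-1 antigen, stood at 626, 309, 446 and 2614 CPM. Library 4 exceeded the other libraries for each of the 3 genes, and library 2 was lowest. In all lists genes were named mostly by their level in library 4, so the order of the libraries is a description only. Ly6a had a UMI in every endothelial cell of library 4 at 8068 CPM, so its share of cells says nothing in T cells. The part of RNA from other cells in its level was not tested. Cd69, an early activation antigen that also holds cells in tissue, stood at 356, 25, 213 and 146 CPM and was not highest in library 4.

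**Figure D2:**
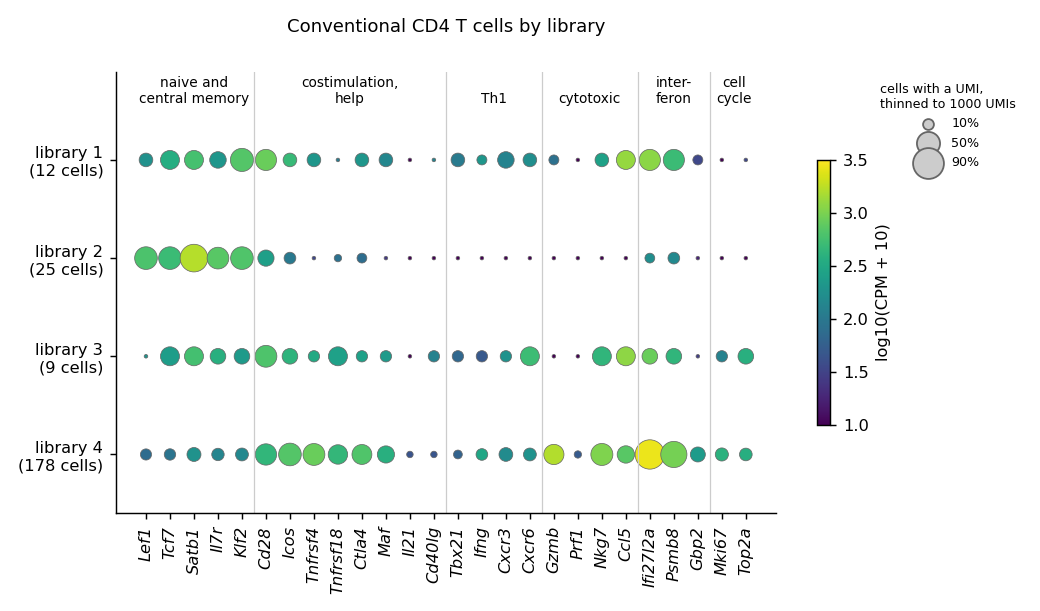
Level of genes of 6 groups in the conventional CD4 T cells of each library. Colour is log10(CPM + 10) and circle area is the share of members with a UMI after thinning each cell to 1000 UMIs, and Lef1, Tcf7, Satb1 and Il7r are highest in library 2 while Gzmb and Ifi27l2a are highest in library 4.

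Single cells showed part of this split after each was thinned at random to 1000 UMIs, which takes depth out of the comparison. Cells were sorted by whether they had a UMI of Lef1, Tcf7 or Ccr7 (naive) or of Gzmb, Ifng or Cxcr6 (effector), sets chosen with earlier results known. In library 4, 33 of 177 members had only naive UMIs, 69 only effector UMIs, 14 both and 61 neither. In library 2, 21 of 25 members had only naive UMIs, 0 had effector UMIs and 4 had neither. Library 1 had 4 naive only, 2 effector only, 1 with both and 5 with neither of 12, and library 3 had 2, 3, 1 and 3 of 9. Tcf7 and Gzmb met in 1 thinned member of library 4, while 19 had only Tcf7 and 66 only Gzmb. Lef1 and Gzmb were less apart, with 6 thinned members that had both, 13 only Lef1 and 61 only Gzmb, and without thinning 72.9% of members with Lef1 and 71.0% of those without had Gzmb. Without thinning, 110 of 178 members of library 4 had UMIs from both sets and 5 had neither. Thinning both equalised the cells and lowered detection, and their parts in this change cannot be told apart. The CD8 T cells of library 2 leaned the same way, with 26 of 38 naive only and 1 effector only, and those of library 4 had 58 naive only and 361 effector only of 555.

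Costimulatory receptors were abundant in library 4 and mostly lowest in library 2. Cd28, the main costimulatory receptor, stood at 834, 242, 621 and 430.1 CPM in libraries 1 to 4, with a UMI in 94.4% of members of library 4 against 3.45% of endothelial cells. Icos, a receptor induced on activated helper cells, stood at 478, 91.8, 407 and 673 CPM. Tnfrsf4, which encodes OX40 and sustains CD4 T cell responses, stood at 196, 25, 310.3 and 838 CPM, and in library 4 had a UMI in 81.5% of members (44.6% thinned), against 4.67% of endothelial cells (0.409% thinned). Library 2 was lowest for all 3 receptors, and library 4 was highest for Icos and Tnfrsf4 but not for Cd28. The 11 genes of the list summed to 2380.1, 843, 2172 and 3063 CPM.

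Cd40lg, the ligand by which helper T cells act on B cells, dendritic cells and macrophages, was seen in 3 libraries. It had 10, 0, 6 and 90 UMIs in libraries 1 to 4, or 123, 0, 116 and 36.1 CPM. A UMI was found in 16.7%, 0%, 33.3% and 29.8% of members. It was found in 0 of 493 endothelial cells of library 4, where 3 cells would be a share of 0.609%. The gene lies at chrX:57212143-57224042 on the plus strand of GRCm38.

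Inhibitory receptors were present with the costimulatory ones. Ctla4, which competes with Cd28 for its ligands, stood at 196, 66.8, 252 and 641 CPM and had a UMI in 89.3% of members of library 4 against 6.49% of endothelial cells. Pdcd1, the PD-1 receptor, stood at 24.5, 0, 369 and 228 CPM. Lag3, a receptor for MHC class II, stood at 0, 8.35, 19.4 and 269 CPM. Ctla4 and Lag3 were highest in library 4 and Pdcd1 in library 3, where it had 19 UMIs.

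Defining genes of the Th1 programme were found in libraries 1, 3 and 4. Tbx21, its transcription factor, stood at 98.1, 0, 58.2 and 51.3 CPM in libraries 1 to 4. Ifng, the cytokine interferon gamma, stood at 196, 0, 38.8 and 292 CPM and in library 4 had a UMI in 41.6% of members against 14.2% of endothelial cells, or 11.9% against 2.25% thinned. Cxcr3, the receptor for interferon-induced chemokines, stood at 123, 0, 175 and 147 CPM. All 3 genes had 0 UMIs in library 2, where 3 UMIs would be 25 CPM. The 19 genes of the list summed to 1681, 484, 1920.2 and 2059 CPM, with 10 of them at 0 in library 2 and only Csf2 at 0 in library 4. Tnf, named after its values were seen, had a UMI in 25.3% of members of library 4 and 29.4% of endothelial cells.

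Th2 and Th17 cytokines were scarce, while other genes of these lists, such as Rora, were not. Gata3, the Th2 transcription factor, stood at 85.9, 16.7, 19.4 and 52.5 CPM, and Il4 had 1, 0, 0 and 5 UMIs. Il13 had 0, 0, 0 and 81 UMIs, in 6 members of library 4, of which 1 held 66. Il17a, the cytokine of Th17 cells, had 0, 0, 0 and 2 UMIs. Rora, a nuclear receptor of Th17 cells that other T cells also express, stood at 429, 41.7, 116 and 111 CPM. In library 4 it had a UMI in 52.8% of members.

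Genes of follicular help differed in their order across the libraries. Maf, a transcription factor that drives Il21 and Il10 in helper cells, stood at 135, 16.7, 213 and 366 CPM, with a UMI in 70.8% of members of library 4 against 8.52% of endothelial cells. Il21, the cytokine with which helper cells act on B cells and CD8 T cells, had 0, 0, 0 and 86 UMIs, or 34.5 CPM (27.6 to 42.6) in library 4, where 17.4% of members had one and 0 of 493 endothelial cells did. Cxcr5, the receptor that leads cells into follicles, stood at 12.3, 0, 0 and 27.3 CPM, and Bcl6, the lineage factor, at 24.5, 33.4, 58.2 and 22 CPM. Il21 had UMIs in library 4 only, but the limits that 0 UMIs allow in libraries 1 and 3, 36.8 and 58.2 CPM, lie above its level there, and that of library 2, 25 CPM, below it. Sh2d1a, the adaptor SAP of T and B cell contact, stood at 73.6, 91.8, 77.6 and 184 CPM.

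Most effector molecules shared with CD8 T cells were at 0 in library 2. Gzmb, a protease of cytotoxic granules, stood at 73.6, 0, 0 and 1635 CPM, and in library 4 had a UMI in 71.9% of members and 44.8% of endothelial cells, or 37.9% and 7.98% after thinning. Prf1, the pore-forming perforin, stood at 0, 0, 0 and 41.3 CPM, with shares of 19.7% and 8.32%. Nkg7, a granule membrane protein, stood at 258, 0, 427 and 1032 CPM. For the 3 genes members of library 4 had a larger share than endothelial cells, whereas Gzma, named after its values were seen, had thinned shares of 5.65% and 5.11%. Ccl5, a chemokine of effector T cells, stood at 1276, 0, 1183 and 704 CPM and was lowest in library 2. In library 4 it had a UMI in 80.3% of members and in 71.2% of endothelial cells, which stood at 223 CPM. Of the 18 genes of the cytotoxic list 14 were at 0 in library 2 and 0 in library 4. The value of 3 UMIs was 25 CPM in library 2 and 1.20 CPM in library 4, and the part of depth in this count was not tested.

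Cxcr6, Il2rb and Rgs1 were lower in library 2 than in the other libraries. Cxcr6, which binds a chemokine of myeloid and endothelial cells, stood at 159, 0, 504 and 177 CPM. Il2rb, the beta chain of the receptors for interleukins 2 and 15, stood at 209, 0, 291 and 422 CPM. Both genes had 0 UMIs in library 2 and UMIs in each other library. Rgs1, which dampens chemokine signals in tissue T cells, stood at 258, 8.35, 931 and 598 CPM, whereas Itgae, an integrin of epithelial resident T cells, had 0, 0, 1 and 4 UMIs.

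Interferon-responsive and proliferation genes were higher in library 4 than in libraries 1 and 2. Ifi27l2a, an interferon-induced mitochondrial protein, stood at 1141, 159, 834 and 2681 CPM and in library 4 had a UMI in 81.4% of thinned members against 14.9% of thinned endothelial cells. Psmb8, a subunit of the immunoproteasome, stood at 491, 142, 427 and 938 CPM. The 24 genes of the interferon list summed to 4306, 1361, 2735 and 6868 CPM. Mki67, which marks dividing cells, stood at 0, 0, 116 and 382 CPM, and Top2a, which unwinds replicated DNA, at 24.5, 0, 369 and 361 CPM. In library 4, 42.1% of members had an Mki67 UMI against 3.65% of endothelial cells, and library 3 also had UMIs of both genes.

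Glycolysis genes were highest in library 4. Gapdh stood at 871, 1093, 1047 and 3779 CPM, Ldha, which makes lactate, at 466, 518, 252 and 1537 CPM, and the 17 genes of the list summed to 3055, 4349, 3181 and 12089.9 CPM. Immediate early genes had another order, with Junb, a subunit of AP-1, at 4196, 1803, 1843 and 1370.1 CPM and Fos, its dimer partner, at 809.7, 359, 155 and 151 CPM, both highest in library 1 and lowest in library 4, where the level of Fos was close to that of library 3. These genes are also known to respond to tissue digestion, whose part in the result was not tested.

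The comparison of conventional CD4 with CD8 T cells asks what separates helper from cytotoxic cells of the same graft, and was made within library 4 (178 and 555 cells), the library with enough members. Maf, Tnfrsf4, Il21 and Cd40lg were higher and granule and chemokine genes lower in the CD4 T cells. Maf and Tnfrsf4 are not particular to conventional cells, since the Foxp3 T cells of library 4 had more of both, at 496 and 1814 CPM. Maf stood at 366 CPM against 15.5, Tnfrsf4 at 838 against 139, Il21 at 34.5 against 0.352 and Cd40lg at 36.1 against 1.06. The chemokine Xcl1, which attracts cross-presenting dendritic cells, stood at 83.0 CPM against 2759.9, and Prf1 at 41.3 against 767.

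Of 8415 genes tested for size, 108 were at least 2-fold higher in the CD4 T cells and 78 at least 2-fold lower, which is 1.28% and 0.927% of the genes, with a median of 0.03. Folds are on the log2 scale with 10 CPM added to each level, which understates the difference of low genes. The groups are cells of 1 library, so there is no replicate check and no test, and the CD8 T cells were deeper, with a median of 16578 UMIs against 9723.5.

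**Figure D3:**
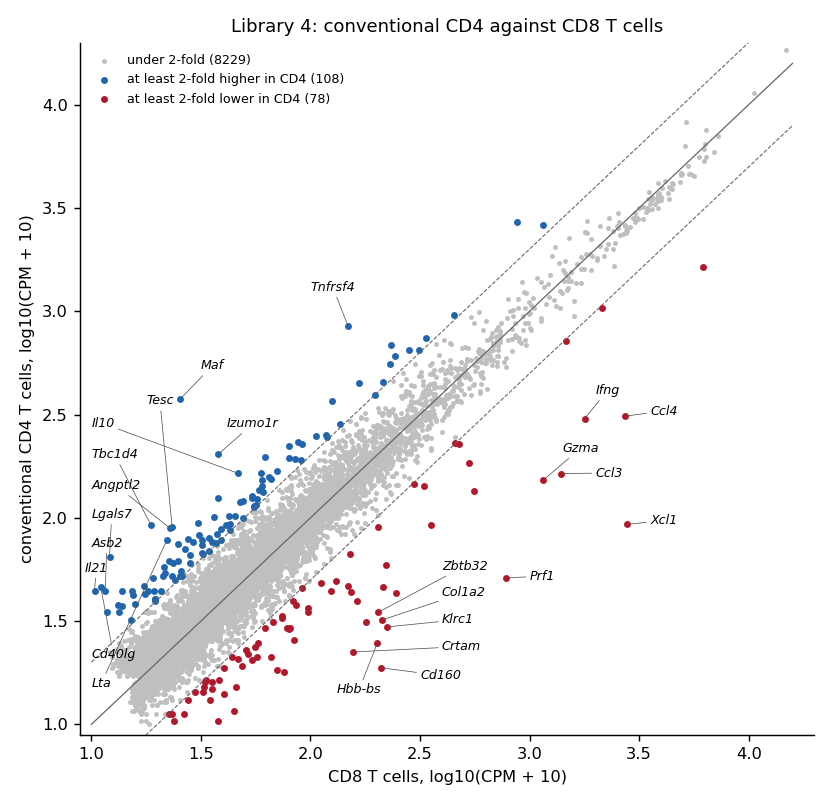
Levels of 8415 genes in conventional CD4 T cells (vertical) against CD8 T cells (horizontal) of library 4, both as log10(CPM + 10). Dashed lines mark 2-fold differences, the labelled genes are the 12 of largest fold in each direction, and Maf lies farthest above the lines and Xcl1 farthest below.

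The 12 genes of largest fold above the CD8 T cells held transcription, receptor and cytokine genes, not all particular to conventional CD4 T cells. Maf, Tnfrsf4, Izumo1r, Asb2 and Il10 stood higher still in the Foxp3 T cells of library 4, at 496, 1814, 412, 47.5 and 219 CPM. The other genes of this list stood lower in the Foxp3 than in the conventional CD4 T cells. Maf came first with a log2 fold of 3.88, then Tnfrsf4 with 2.51 and Izumo1r, the folate receptor 4 of regulatory and anergic CD4 T cells, with 2.42. Lgals7, a galectin, had 2.41 and Tbc1d4, a regulator of glucose transporter traffic, 2.30. Il21 had 2.10, as a plain ratio of CPM 97.8 (95% interval 36.8 to 367), and Cd40lg 2.06, as a ratio 34.1 (95% interval 18.6 to 68.5). Angptl2, Tesc and Asb2 had 1.95, 1.95 and 1.94, and Il10, an inhibitory cytokine, 1.81. Lta, which encodes lymphotoxin alpha, had 1.82, but 1 CD4 T cell held 55.6% of its UMIs and without the highest cells the fold was 0.98. The other 11 genes stayed past 2-fold without their highest cells.

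The 12 genes of largest fold below the CD8 T cells were led by effector molecules and receptors of killer cells. Xcl1 had a log2 fold of -4.90 and Prf1 of -3.92. An Xcl1 UMI was found in 24.2% of the CD4 T cells and 24.5% of endothelial cells, at 83.0 and 22 CPM, and 1 CD4 T cell held 54.6% of its UMIs. Cd160, a receptor of cytotoxic cells, had -3.47, the chemokines Ccl4 and Ccl3 had -3.13 and -3.08, and Gzma had -2.92. Klrc1, an inhibitory lectin receptor, had -2.91, Crtam, an adhesion molecule of activated CD8 T cells, -2.80, and Zbtb32, a transcriptional repressor, -2.55. Ifng had -2.56, at 292 CPM against 1772, so interferon gamma transcripts were present in both groups and lower in the CD4 T cells. Hbb-bs and Col1a2 were also on the list with -3.02 and -2.73, but 1 CD8 T cell held 94.4% of the Hbb-bs UMIs and 1 held 53.9% of the Col1a2 UMIs, and without the highest cells the folds were 0.21 and -1.73.

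The directions could be looked at in the small libraries for a few genes only, and not every named gene kept its order there. In library 2 Ccl4 stood at 58.4 CPM in the CD4 and 51.7 in the CD8 T cells, and Ccl3 at 41.7 and 37.6. Angptl2 stood at 0 and 31.5 CPM in library 3, and Tbc1d4 at 24.5 and 33.2 in library 1. These values rest on at most 11 UMIs in a group. Maf stood at 135 CPM in the CD4 and 24.9 in the CD8 T cells of library 1, and at 213 and 110.3 in library 3. Tnfrsf4 stood at 196 and 8.31 CPM in library 1 and at 310 and 5.25 in library 3, from 16 UMIs in the CD4 and 1 UMI in the CD8 T cells of either library. Both genes were higher in the CD4 T cells there too. Xcl1 was lower in the CD4 T cells of library 1, at 61.3 CPM against 191, and went the other way in library 3, at 1222 CPM in the CD4 and 116 in the CD8 T cells, but 1 of the 9 members held 95.2% of its 63 UMIs. Ifng stood at 196 CPM in the CD4 and 41.6 in the CD8 T cells of library 1, where 16.7% and 26.3% of cells had a UMI, and at 38.8 and 184 CPM in library 3. Its order by CPM thus turned in library 1 only, and not by share there. By share the order turned in library 3, where 22.2% of CD4 and 20.7% of CD8 T cells had a UMI.

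By list, 15 of 17 cytotoxic genes tested were at least 2-fold lower and 0 higher, with a median log2 fold of -2.03. Gzmb was among them with -1.91, at 1635 CPM against 6189. Of 10 follicular helper genes 6 were at least 2-fold higher and 0 lower, with a median of 1.16, namely Maf, Il21, Icos (1.55), Cxcr5 (1.42), Sh2d1a (1.19) and Slamf6 (1.13), a receptor that signals through SAP. Costimulation had 5 higher and 1 lower of 11 with a median of 0.80, and the lower gene was Tnfrsf9, which encodes 4-1BB, just past 2-fold at 219 CPM against 449. The regulatory list had 4 higher of 10 with a median of 0.80.

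The chemokine receptor list had 3 higher of 11, Cxcr5, Ccr2 and S1pr1, and 0 lower, with a median of 0.71. The list of inhibitory receptors had 3 higher, Cd5, Ctla4 and Nt5e, and 2 lower, Havcr2 and Cd160, of 11 with a median of 0.27. The genes of these 2 lists are named after their values were seen, for passing 2-fold.

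The Th1, cell cycle, glycolysis and interferon lists had medians under 0.50 in size. Of 17 Th1 genes 2 were higher and 1 lower with a median of 0.26, and Tbx21 had 0.06 at 51.3 CPM against 48.6. None of 20 cell cycle genes passed 2-fold in either direction, with a median of 0.01, and 1 of 17 glycolysis genes did. Of 24 interferon genes 3 were higher, with a median of 0.49, among them Ifi27l2a at 1.61. The macrophage list had 3 of 7 genes higher, the C1q chains, and the granulocyte list both of its 2 tested genes, while 4 of 4 fibroblast genes were lower. Without the highest cell of each group the C1q chains, S100a8 and S100a9 were all under 2-fold, at 0.73 to 0.99, and the fibroblast genes stood at -0.91 for Dcn, where 1 CD8 T cell held 43.1% of the UMIs, -1.02 for Bgn, -1.50 for Col3a1 and -1.64 for Col1a1, where 1 held 50.8%. The part of RNA from these cells in the gene differences was not tested.

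The stretch of 250 bases upstream of the RefSeq start is shown for 2 of the genes higher in CD4 T cells, Il21 and Tnfrsf4, and 2 of those lower, Xcl1 and Prf1. The sequences are from the RefSeq promoter table of GRCm38.p6, in which 7 genes of the comparison were looked up and these 4 were found. Each is written 5′ to 3′ on the strand of its gene, and capitals mark GGAAA, the core letters that NFAT factors bind, or TTTCC, the same motif on the other strand. Gene positions are those of GENCODE, whose start can differ from that of RefSeq. Il21 lies at chr3:37222759-37232636 on the minus strand with the window chr3:37232637-37232886, and Tnfrsf4 at chr4:156013843-156016612 on the plus strand with the window chr4:156013445-156013694. Xcl1 lies at chr1:164931644-164935527 on the minus strand with the window chr1:164935523-164935772, and Prf1 at chr10:61297833-61304680 on the plus strand with the window chr10:61297586-61297835.
Il21: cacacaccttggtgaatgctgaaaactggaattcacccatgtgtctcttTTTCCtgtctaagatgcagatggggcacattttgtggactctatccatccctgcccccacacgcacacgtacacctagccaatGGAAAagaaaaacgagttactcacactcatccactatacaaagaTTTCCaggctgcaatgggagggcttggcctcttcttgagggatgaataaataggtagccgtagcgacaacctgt
Tnfrsf4: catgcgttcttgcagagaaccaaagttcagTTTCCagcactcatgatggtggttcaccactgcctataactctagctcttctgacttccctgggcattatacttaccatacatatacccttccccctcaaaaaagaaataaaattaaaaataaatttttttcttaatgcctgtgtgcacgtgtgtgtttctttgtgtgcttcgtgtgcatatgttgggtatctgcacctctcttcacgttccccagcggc
Xcl1: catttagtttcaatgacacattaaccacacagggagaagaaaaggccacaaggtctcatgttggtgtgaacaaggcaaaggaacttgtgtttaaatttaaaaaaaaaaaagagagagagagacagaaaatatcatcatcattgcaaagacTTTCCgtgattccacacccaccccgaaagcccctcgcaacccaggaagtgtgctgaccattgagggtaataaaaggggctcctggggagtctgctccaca
Prf1: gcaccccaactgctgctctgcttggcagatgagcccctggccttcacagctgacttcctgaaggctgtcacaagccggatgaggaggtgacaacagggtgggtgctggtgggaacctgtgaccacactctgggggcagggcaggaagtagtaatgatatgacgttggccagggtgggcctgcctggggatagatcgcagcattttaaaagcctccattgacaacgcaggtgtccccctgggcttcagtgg
The motif GGAAA occurred 3 times in the window of Il21, 1 time in those of Tnfrsf4 and Xcl1 and 0 times in that of Prf1, on either strand. Among 27025 promoters of the same length 55.6% held it. The AP-1 motif TGANTCA occurred in none of the 4 windows and in 6.87% of all promoters. A match or its absence describes these letters only.

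Single cells of library 4 showed how unevenly the cytokines were spread. Of 728 Ifng UMIs in the conventional CD4 T cells, 82.3% lay in the 18 cells with most of them, and 104 of 178 cells had 0. The same 10% of cells by each gene held 84.9% of the Il21 UMIs, 70.4% of the Il10 UMIs, 66.2% of the Gzmb UMIs and 60% of the Cd40lg UMIs. Receptors and transcription factors spanned a wide range, from 37.5% for Tnfrsf4 and 41.0% for Maf over 54.9% for Tcf7, 63.8% for Ikzf2 and 65.1% for Ccr7 to 76.5% for Cxcr5. In the CD8 T cells the top 10% held 93.3% of the Ifng, 86.6% of the Il10 and 48.6% of the Gzmb UMIs. Cells with a UMI of Il21 were deeper, with a median of 20876 UMIs against 8218 for those without, so depth moves with detection. The shares above count plain UMIs in members that had 952 to 84989 UMIs each. The part of depth in these shares was not tested.

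Maf was found in most members with Il10 or Il21. Of the 62 members of library 4 with an Il10 UMI, 56 also had a Maf UMI, which is 90.3% (80.1% to 96.4%), against 60.3% (50.8% to 69.3%) of the members without Il10. Of 31 members with Il21, 28 had Maf, which is 90.3% (74.2% to 98.0%), against 66.7% (58.4% to 74.2%) of those without. Il21 and Ifng met in 19 members, whereas 55 had Ifng alone and 12 had Il21 alone, and after thinning to 1000 UMIs 0 had both, 21 Ifng alone and 5 Il21 alone. Depth moves with each of these pairs. After the same thinning, 9 members had both Il10 and Maf and 8 had Il10 alone, against 39 with Maf alone and 121 with neither.

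**Figure D4:**
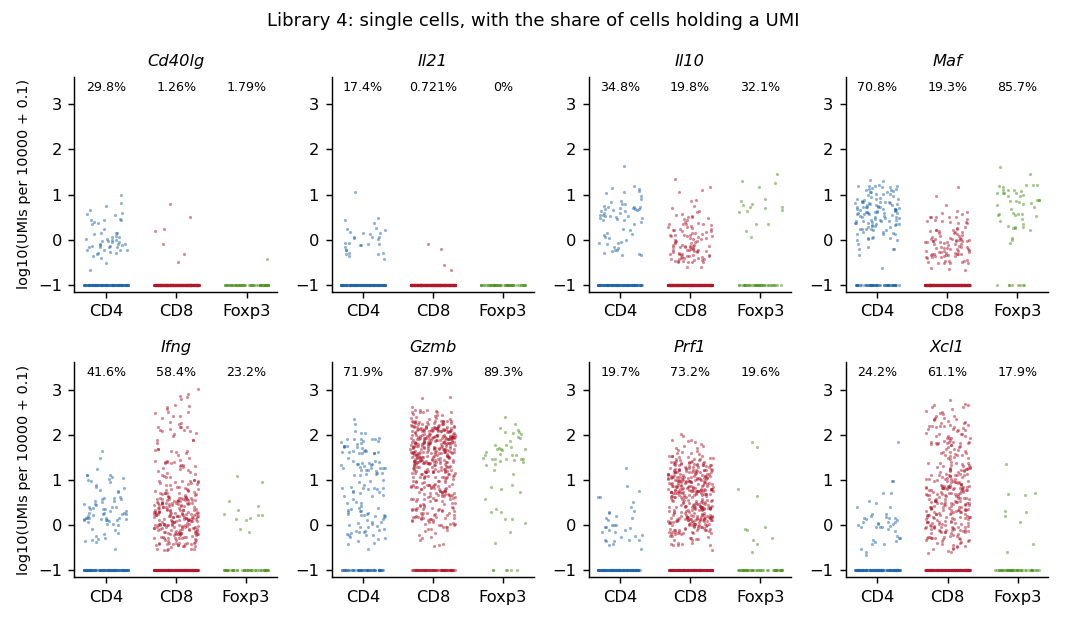
UMIs per 10000 in each cell of library 4 on a log10 axis with 0.1 added, for 8 genes in conventional CD4, CD8 and Foxp3 T cells, 1 point a cell, with cells at 0 on the bottom line. Cd40lg and Il21 points are found mainly in the CD4 column, and Prf1 and Xcl1 points reach higher in the CD8 column.

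Against Foxp3 T cells, the regulatory cells of the same library (56 cells), conventional CD4 T cells had more of the effector cytokine and stem-like genes and less of the regulatory set. Ifng stood at 292 CPM against 26.0, a log2 fold of 3.07, and Tcf7 at 81.8 against 6.13, a fold of 2.51. Cd40lg stood at 36.1 CPM against 1.53, a ratio of 23.5 (95% interval 4.12 to 940.2) that rests on 1 UMI. Il21 stood at 34.5 CPM against 0 UMIs, and the lower 95% limit of the ratio was 5.97. Its level was 7.50-fold the 4.60 CPM that 3 UMIs would give over the Foxp3 T cells. The inhibitory lectin receptor Klrg1 was lower by -3.90, at 6.01 CPM against 228. Of 6293 genes tested for size, 95 were at least 2-fold higher and 187 at least 2-fold lower, which is 1.51% and 2.97%, with a median of 0.03. These counts are given with all cells in. Of the 12 largest folds in each direction, 9 of the lower and 0 of the higher genes fell under 2-fold without the highest cells. The Foxp3 T cells had a median of 7915 UMIs against 9723.5.

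The 12 genes of largest fold above the Foxp3 T cells were Ifng, Tcf7, Ifitm1 (2.40), Gtf2i (2.28), Tbc1d4 (2.26), Fasl (2.25), Gzmk (2.19), Il21 (2.15), S100a9 (2.05), Lta (2.02), Bhlhe40 (2.01) and Cd40lg (2.00). Fasl is the death ligand, Gzmk a granzyme and Bhlhe40 a repressor that permits cytokine production. Without the 1 highest cell of each group all 12 stayed past 2-fold. For Ifitm1, S100a9, a granulocyte gene, and Lta, 1 CD4 T cell held 58.6%, 50.5% and 55.6% of the UMIs, and the folds were then 1.44, 1.27 and 1.21. A second CD4 T cell held 105 of the 331 S100a9 UMIs, and the fold without both cells was not computed. An S100a9 UMI was found in 21.3% of the CD4 and 23.2% of the Foxp3 T cells. Fasl and Gzmk each had 1 UMI in the Foxp3 T cells, so their plain ratios, 29.3 (95% interval 5.15 to 1167) and 27.7 (95% interval 4.87 to 1105), are loose.

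The 12 genes of largest fold below the Foxp3 T cells were mostly set by 1 cell. They were Col1a2, Sparc, Col3a1, Col1a1, Hp, Serpinh1, Ccl2, Klrg1, Cxcl1, Serping1, Timp1 and Igkc, and for 9 of them the fold was under 2 without the highest cells. Col1a2 moved from -5.67 to -0.12, since 1 Foxp3 T cell held 98.7% of its UMIs. Those that stayed past 2-fold were Klrg1 at -3.89, the immunoglobulin gene Igkc at -2.58 and the collagen gene Col3a1 at -1.02.

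By list, 8 of 11 regulatory genes tested were at least 2-fold lower than in Foxp3 T cells and 0 higher, with a median of -1.37. Ikzf2, the transcription factor Helios, stood at 156 CPM against 1034, a log2 fold of -2.65, and Il2ra, the alpha chain of the interleukin 2 receptor, at 155 against 893, -2.45. Lrrc32, which presents TGF-beta on regulatory cells, stood at 2.81 CPM against 149. Ctla4 stood at 641 against 1381. The regulatory genes were thus present in the conventional CD4 T cells at a lower level than in Foxp3 T cells. The cytotoxic list was divided, with 3 of 15 higher, Gzmk, Ctsw and Klrk1, and 3 lower, Gzmb, Prf1 and Klrg1, and a median of 0.51. Gzmb stood at 1635 CPM against 3759, a log2 fold of -1.20, and Prf1 at 41.3 against 195, but 1 Foxp3 T cell held 69.3% of the Prf1 UMIs and without the highest cells its log2 fold was -0.94. Of 16 Th1 genes 7 were higher and 0 lower with a median of 0.73, and of 9 follicular helper genes 2 were higher and 0 lower with a median of 0.47. Of 14 immediate early and stress genes 6 were lower, among them Fos, Jun and Egr1, with a median of -0.82. These genes were not looked at without the highest cells. All 4 of 4 fibroblast genes were lower with a median of -4.32. A single Foxp3 T cell held 97% of the Col1a1 UMIs and 95.6% of the Col3a1 UMIs, and without the highest cells their folds went from -5.12 to -0.60 and from -5.18 to -1.02.

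Some members carried several regulatory genes without a Foxp3 UMI. In library 4, 33 of 178 members had UMIs of both Ikzf2 and Il2ra, and 40 had Ikzf2 alone. Izumo1r stood at 49.1, 8.35, 175 and 193 CPM in libraries 1 to 4 and at 412 CPM in the Foxp3 T cells of library 4, and Il10 at 0, 0, 0 and 154 CPM and 219 CPM. Without the 33 members that had both Ikzf2 and Il2ra, a step chosen after the values were seen, 145 members remained. The level then went from 154 to 117 CPM for Il10 and from 641 to 481 for Ctla4. Il21 went from 34.5 to 30.3 CPM, Cd40lg from 36.1 to 39.0 and Ifng from 292 to 337. Regulatory T cells whose Foxp3 transcripts were missed and conventional cells with these genes cannot be told apart by this rule.

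**Figure D5:**
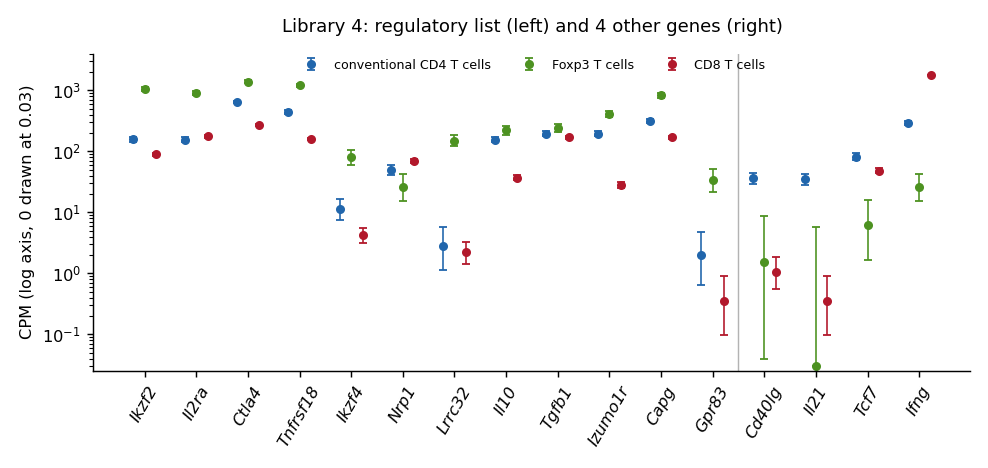
Level in CPM on a log axis of the regulatory list and 4 other genes in conventional CD4, Foxp3 and CD8 T cells of library 4, with exact 95% Poisson intervals and a level of 0 drawn at 0.03. Ikzf2, Il2ra and Lrrc32 stand higher in Foxp3 T cells, and Cd40lg and Il21 stand higher in conventional CD4 T cells.

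The T cell receptor segments gave little information on clones. In library 4, 4 members had UMIs of Trbc1 only, 62 of Trbc2 only and 112 of both, and these near-identical constant regions can share reads. A Trbv UMI was seen in 21 members of the 4 libraries, over 10 of 35 Trbv genes, and a Trav UMI in 29 members, over 23 of 128 Trav genes. Trbv12-2 was seen in 8 members and Trbv16 in 5, and Trbv13-1 and Trbv21 in 2 each. Trav12-2 was seen in 3 members, and Trav13-1, Trav17, Trav7-5, Trav8-2 and Trav9-1 in 2 each. Counting from the 3′ end reaches the variable segment in few molecules, so no clone could be followed.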

How the data were processed

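Single-cell RNA profiles of 4 heart grafts were measured with the 10x 3′ v3 kit. The counts of UMIs per gene and cell are those the authors deposited in 1 matrix over all grafts, without normalization, made with Cell Ranger 3.0.0 on mm10 with Ensembl 92 annotation. The submitters' processing notes also name CASAVA 1.8 and Seurat. The study's text counts fewer cells than the filter used here left, over a population that was not rebuilt. The 4 libraries held 96020294, 115162601, 138892048 and 166079145 UMIs over 13112, 13907, 13500 and 13305 cells. No column of the matrix belongs to another sample.

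The members, gene lists and comparisons were chosen with earlier results of these data known. After the filter on cells, the 13 mitochondrial genes were left out of all levels. Levels were pooled per library, and cells were also thinned to 1000 UMIs, which left out 1 member. CD8 T cells had at least 1 UMI of Cd8a or Cd8b1 and none of Cd4, Foxp3 or Cdh5, Foxp3 T cells at least 1 of Foxp3 and none of Cd8a, Cd8b1 or Cdh5, and endothelial cells at least 2 of Cdh5 and none of Cd3d, Cd3e or Cd3g, all with under 10 Lyz2 UMIs. Folds used log2(CPM + 10) for genes with at least 50 UMIs over both groups and a UMI in at least 10% of cells of the higher group, without the genes of the rule. No test was made, since cells are not replicates. Possible doublets were marked by simulation per library (5% of cells, 50 neighbours, 10 components, 2000 genes) and kept.

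Genes were named by rule: of each of 28 lists (298 genes, all found) the 4 highest in library 4 and the first 2, the 12 of largest fold in each direction, and the 5 Trbv and Trav genes seen in most members. A rule for genes that vary between libraries with at least 50 members could not be applied, since only library 4 had so many. Positions are from GENCODE M21 (GRCm38) and promoters from RefSeq (GRCm38.p6), whose table held 4 of the 7 genes looked up. The folds between groups, the intervals of levels and the marking of doublets were tested on simulated data, and the other steps were not. The software was scikit-learn 1.9.0, numpy 2.4.6, scipy 1.17.1, pandas 2.3.3 and matplotlib 3.10.9 under Python 3.11.15. Some genes that the rule takes are not reported here.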

Additional observations from a re-analysis of the deposited data

How the results depend on the processing

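The number of conventional CD4 T cells, 224, was 139 with at least 2 Cd4 UMIs, 46 with 0 Lyz2 UMIs, and 46 to 215 with 1 library left out, the lowest without library 4. Their share of filtered cells, 0.502%, was 0.311% with at least 2 Cd4 UMIs, 0.103% with 0 Lyz2 UMIs, 0.424% without members that had UMIs of both Ikzf2 and Il2ra (chosen after seeing the data), and 0.138% to 0.632% with 1 library left out. The genes at least 2-fold higher than in CD8 T cells, 108, were 41 with 0 Lyz2 UMIs, where only 1301 genes could be tested, and 256 with 1 CPM added in place of 10, while the 78 lower genes were 107 with 0 Lyz2 UMIs, so that the lower genes then outnumbered the higher, as they did by a mean over cells (109 higher and 117 lower), and 209 with 1 CPM added. Under the other alternatives run the higher genes numbered 77 to 146 and the lower genes 62 to 117. The 234 listed genes at or above 10 CPM in library 4 numbered 218 to 237. Among 220 values of 20 named genes over 11 settings none of the called values changed sign, and 83 moved by more than their counting interval, for which the cause was not tested. Leaving out a library was not run for results of library 4 alone. No paired analysis was possible because the barcodes carry no graft or replicate number and no test was made. Depth limits libraries 1 to 3, where 3 UMIs stand for 25 to 58.2 CPM.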

Other observations

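MHC class II transcripts, which antigen-presenting cells express, were found in conventional CD4 T cells of library 4. Endothelial cells can express these genes themselves, so their shares are given beside those of the members and are no measure of background. Cd74, the invariant chain, stood at 85.9, 25, 58.2 and 681 CPM in libraries 1 to 4, and in library 4 had a UMI in 95.5% of members and 98.6% of endothelial cells, or 33.9% and 63.6% after thinning to 1000 UMIs. H2-Ab1, a class II beta chain, stood at 24.5, 16.7, 77.6 and 330.3 CPM, with thinned shares of 31.6% and 38.0%. The dendritic cell genes Flt3 and Xcr1 had 0 UMIs in library 4, where 3 UMIs would be 1.20 CPM.

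Defining genes of natural killer and gamma-delta T cells were scarce. Trdc, the constant region of the delta chain, had 0, 1, 0 and 2 UMIs in libraries 1 to 4, and Tcrg-C1, a constant region of the gamma chain, 0, 0, 0 and 2. Ncr1, a receptor of natural killer cells, had 2 UMIs in library 4, and Klrb1c, the NK1.1 antigen, stood at 2.81 CPM (1.13 to 5.78) there and had 0 UMIs in the other libraries. Zbtb16, the factor PLZF of innate-like T cells, stood at 36.8, 0, 38.8 and 0.401 CPM in libraries 1 to 4. Fcer1g, a signalling chain of natural killer and myeloid cells, stood at 243 CPM in library 4, with a UMI in 77.0% of members and 78.7% of endothelial cells.

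The receptors for cytokines of the common gamma chain summed to 1803, 2337, 1804 and 1798 CPM for 15 genes in libraries 1 to 4. Single genes went opposite ways, with Il7r highest in library 2 and Il2rb at 0 UMIs there. Jak1, a kinase of these receptors, stood at 368, 651, 233 and 261 CPM. The 14 residency and adhesion genes summed to 2552, 909.8, 4112 and 2709 CPM, lowest in library 2, and the 14 immediate early and stress genes to 12036, 6235, 6401 and 4419 CPM, highest in library 1.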
